A study of Mus musculus with 6 samples.

Results

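The genes described here were 39 genes of the contractile apparatus and the actin cytoskeleton of NIH/3T3 cells, an established line of mouse embryonic fibroblasts. They were taken by gene symbol from their known roles, by a rule that uses no measured value. The list was nevertheless chosen with earlier results of these data known. They covered smooth muscle and striated actins, proteins that sit on the actin filament, myosins, tropomyosins and troponins, crosslinkers and focal adhesion proteins, and genes linked to serum response factor (SRF). Each symbol matched 1 of the 54752 gene identifiers in the count table. Of the 39 members, 28 had at least 10 CPM, the reads of a gene scaled to library size, in more than 3 libraries and were tested among 9518 genes. The other 11 were below that level and are given by their counts.

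The study addressed how the PLK1 inhibitor BI6727 alters the response of fibroblasts to TGF-β1. RNA was sequenced in 6 libraries, 2 replicates in each of 3 groups, after 72 h of treatment. The vehicle group received PBS. In the second group DMSO was added together with 1 ng/ml TGF-β1, and in the third 5 μM BI6727 was added together with TGF-β1 at that concentration. These are called the vehicle, DMSO and BI6727 libraries below. No library with DMSO alone was analysed here, so TGF-β1 and DMSO cannot be told apart in any comparison with vehicle, and whether the BI6727 libraries also received DMSO was not given in the sources used here. All groups were the same cell line, and nothing in the labels says that replicates were separate cultures, so p-values measure the spread between these libraries, which may be technical. In bulk RNA, fewer cells expressing a gene and less RNA per cell cannot be told apart.

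A contractile fibroblast generates force when nonmuscle or smooth muscle myosin pulls on actin filaments. Phosphorylation of the myosin regulatory light chain starts this movement, tropomyosins, calponins and caldesmon sit along the filament and modulate it, and α-actinins, filamin and focal adhesion proteins tie the filaments together and to the membrane. TGF-β1 is known to drive fibroblasts towards the myofibroblast state, whose usual marker is smooth muscle α-actin, and many genes of this apparatus are transcribed through SRF and its actin-sensing cofactors, the MRTFs.

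Library totals lay between 18362378 and 24452153 counts. A count of 3, the floor used for low genes, corresponded to 0.123 to 0.163 CPM, and covers counting error only. All 9 fibroblast markers examined, such as Col1a2 and Vim, passed the filter in this fibroblast line. Of the smooth muscle markers, Myocd was at 0 in every library and only Smtn passed, and the heart genes Myh6, Nppa and Tnni3 and the skeletal muscle regulators Myod1 and Myog were also at 0. The smooth muscle markers summed to 36.5 to 40.4 CPM in vehicle, 74.3 to 91.3 CPM in the DMSO libraries and 68.6 to 80.7 CPM in the BI6727 libraries, with Smtn the main part. None of the 5 endothelial markers passed, Kdr was at 0, and their sum was 5.19 to 7.55 CPM in vehicle and 10.3 to 18.3 CPM in the treated libraries, whose part in the results below was not tested. The DMSO libraries differed from each other more than the other pairs. Over all genes tested, the log2 difference of the replicates had an SD of 0.377 in the DMSO group, 0.163 in vehicle and 0.147 in the BI6727 group. This difference moved with gene length: long transcripts were higher in DMSO replicate 1. Over the 28 tested members, the log2 difference between the DMSO libraries had a Spearman correlation of 0.603 with exonic length, beside 0.660 over all 9518 genes. All points share the same libraries. Of the 8 members of 6926 bases or more, 7 were higher in DMSO replicate 1, with a median log2 difference of 0.70. Of the 7 members of up to 2620 bases, 1 was, with a median of -0.05. For members whose values differed between the DMSO libraries, each DMSO library is given.

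The binding site of SRF, the CArG box, is a 10-base element of a CC, 6 letters that are A or T, and a GG. It was searched in RefSeq promoter windows of GRCm38.p6, which run from 250 bases before to 50 bases after each gene start, and 34 of the 39 members had a window. The box was found in 8 of these 34 (23.5%), which were Acta1, Actc1, Cnn2, Fhl2, Myl6, Myl9, Srf and Vcl. Among all 27025 genes with windows, 488 held it (1.81%). Members were picked partly for their link to SRF, so this share is no independent finding. The upstream sequences of Srf, Cnn2 and Acta2 are shown because Srf and Acta2 had among the largest differences between BI6727 and DMSO and Srf and Cnn2 hold the box. In each line, the last base lies directly before the RefSeq start and the capitals mark the box. Srf, on the minus strand at chr17:46556163-46556412, holds 2 boxes that begin 82 and 62 bases before the start. Cnn2, on the plus strand at chr10:79988350-79988599, holds 1 box at 56 bases. Acta2, on the minus strand at chr19:34255374-34255623, holds no exact box, and its capitals mark 2 elements at 84 and 34 bases that differ from it by 1 letter. Acta2 was added to the lines shown after its values were seen.
Srf: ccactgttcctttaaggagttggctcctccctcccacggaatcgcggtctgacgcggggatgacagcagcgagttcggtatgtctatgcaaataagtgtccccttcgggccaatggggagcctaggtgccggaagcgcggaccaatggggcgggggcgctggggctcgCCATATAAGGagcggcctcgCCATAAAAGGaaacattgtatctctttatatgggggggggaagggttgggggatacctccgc
Cnn2: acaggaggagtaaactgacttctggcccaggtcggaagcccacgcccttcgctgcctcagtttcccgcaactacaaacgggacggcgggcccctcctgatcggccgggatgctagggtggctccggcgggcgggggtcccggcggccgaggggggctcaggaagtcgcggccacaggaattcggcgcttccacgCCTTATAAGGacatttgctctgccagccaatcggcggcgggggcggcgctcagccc
Acta2: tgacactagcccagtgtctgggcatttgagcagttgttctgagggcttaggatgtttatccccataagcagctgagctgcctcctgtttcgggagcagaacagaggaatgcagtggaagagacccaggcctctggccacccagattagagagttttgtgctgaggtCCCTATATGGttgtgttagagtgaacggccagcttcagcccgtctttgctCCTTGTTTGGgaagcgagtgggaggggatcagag

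Shorter stretches of 30 bases around the box are shown for the myosin light chains and vinculin, so that the same element can be read across roles. Myl6 lies at chr10:128493040-128493069 on the minus strand, Myl9 at chr2:156775293-156775322 on the plus strand and Vcl at chr14:20929161-20929190 on the plus strand.
Myl6: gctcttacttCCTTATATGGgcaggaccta
Myl9: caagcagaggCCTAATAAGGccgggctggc
Vcl: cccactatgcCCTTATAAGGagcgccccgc
Allowing 1 letter of difference, 17 of 34 members held the element, Tnnt2 and Acta2 among them, beside 23.8% of all genes. The hexamer GGAATG, the core of the MCAT element bound by TEAD factors, was found on either strand in 16 of 34 members (47.1%), again with Tnnt2 and Acta2, beside 16.6% of all genes. A match describes letters in these windows and is not a measured site.

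In vehicle-treated cells, the nonmuscle genes of the calponins, myosin heavy chains and actins stood above their smooth muscle relatives. Levels between genes are compared as CPM per kilobase of exonic length. Among the calponins, Cnn2 stood at 95.0 ± 0.925 and Cnn3 at 81.5 ± 0.374 (mean ± SD, n = 2), whereas Cnn1, the smooth muscle calponin, stood at 0.412 ± 0.0885. Tpm4 had the highest tropomyosin level per length, at 191 ± 2.93, followed by Tpm1 at 60.1 ± 0.242, Tpm2 at 56.6 ± 1.42 and Tpm3 at 46.2 ± 2.5. These gaps depend on the exonic length used, which was 2203 bases for Tpm4 and 6485 for Tpm1. In CPM, Tpm4 stood at 422, Tpm1 at 390, Tpm3 at 281 and Tpm2 at 165. The levels of Cnn3, Tpm3 and Tpm4 are uncertain, since 24.0%, 23.2% and 15.7% of their 50-base windows also occur in other genes, and 17.7% of the exonic length of Cnn3 lies under Gm42928 on the other strand. The nonmuscle myosin heavy chains Myh9 and Myh10 stood at 29.1 ± 2.95 and 17.4 ± 1.77, and the smooth muscle heavy chain Myh11 had 0 to 2 counts in every library. Acta2, smooth muscle α-actin, stood at 54.0 ± 3.21, beside 766 ± 37.2 for Actb and 119.5 ± 2.07 for Actg1, the cytoplasmic actins, which are no members. The plot of levels per length places each family member on 1 scale.

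**Figure D1:**
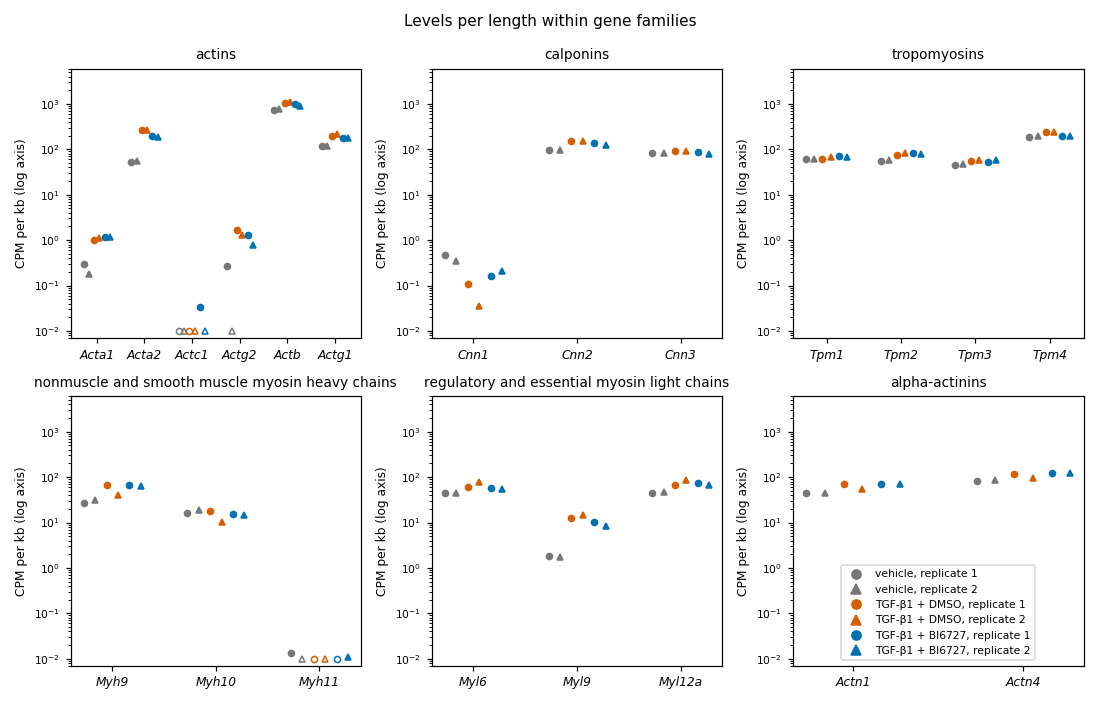
CPM per kilobase of exonic length (log axis) of the genes of 6 families in each of the 6 libraries. Colours mark groups, circles replicate 1 and triangles replicate 2, and open symbols at 0.01 stand for lower values or 0. Cnn1, Myl9 and Myh11 lie far below the other members of their families, and Acta2 lies below both cytoplasmic actins in the vehicle libraries and between Actb and Actg1 in the treated ones.

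With TGF-β1 and DMSO, 5 of the 28 tested members rose past an adjusted p of 0.01 and a fold change of 2, beside 2.56% of all genes tested, and 0 fell, beside 2.53%. The 5 were Acta2, Tnnt2, Pdlim7, Smtn and Tes, of which Tnnt2 passed the filter on low values through the TGF-β1 libraries, where it was high, so its call adds no support to the count. Without vehicle replicate 1 the count was 3 (0.83% of all genes). Calls are from the quasi-likelihood test of edgeR, with p-values adjusted over all genes by Benjamini-Hochberg. DESeq2 called 5 higher (2.83% of all genes) and 1, Synpo, lower (2.66%), and in the edgeR test Synpo was the only member lower at an unadjusted p under 0.05 (19.3% of all genes). Without the minimum on fold change, 11 members rose at an adjusted p under 0.01 (4.92% of all genes) and 0 fell (4.91%). That count moved with the libraries in the fit, and the share of all genes moved with it. Both fell when any vehicle or BI6727 library was left out and rose when either DMSO library was left out. All groups share the estimate of spread, which a left-out library also changes, and its part was not tested. With only the vehicle and DMSO groups in the fit, the count was 6 (2.36% of all genes). At an adjusted p under 0.05, 18 were higher (11.0% of all genes) and 1, Synpo, was lower (12.0%). The median log2 fold change of the 28 members was 0.52, beside -0.005 over all genes tested. DMSO libraries lay wholly above the vehicle libraries for 24 members, beside 29.8% of all genes, and wholly below for 1, beside 33.1%. At an adjusted p under 0.01 without the fold change minimum, DESeq2 placed 17 members higher (9.37% of all genes) and Synpo lower (9.35%).

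Acta2, encoding smooth muscle α-actin, lies at chr19:34241090-34255336 in mm10. It stood at 92.1 and 100.2 CPM in the vehicle libraries, 476 and 473 CPM in the DMSO libraries and 348 and 326 CPM in the BI6727 libraries. The 3 groups did not overlap, and vehicle was lowest. The log2 fold change between DMSO and vehicle was 2.30 (SE 0.10, adjusted p = 2.71e-05). Per length, its share of the 6 actin genes was 5.69% and 5.80% in vehicle, 17.8% and 16.5% with TGF-β1 and DMSO, and 14.4% in each BI6727 library. The share of Actb was 81.3% and 81.7% in vehicle and 68.9% and 70.0% in the DMSO libraries, where its CPM was higher. Only 0.326% of the 50-base windows of Acta2 occur in other genes, while 37.4% of the windows of Actg1 do.

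Tnnt2 encodes troponin T of the heart, which anchors the troponin complex to tropomyosin. It had the largest change of any member, from 157 and 223 counts in the vehicle libraries to 4524 and 5653 with DMSO and 3225 and 4232 with BI6727. In CPM, these were 8.15 and 10.1, then 218 and 272, then 179 and 175, with no overlap between groups. The log2 fold change between DMSO and vehicle was 4.74 (SE 0.17, adjusted p = 2.26e-05). Its partner Tnnc1, troponin C, had 28 to 57 counts in all libraries, and Actc1, cardiac actin, had 0 counts in 5 libraries and 1 in the sixth. The summed level of the 8 heart muscle markers was 9.81 to 11.6 CPM in vehicle, 220 to 275 CPM in the DMSO libraries and 177 to 181 CPM in the BI6727 libraries, of which Tnnt2 made nearly the whole, and 3 of the 8 were at 0 throughout. Only 0.123% of its windows occur in other genes.

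Among the thin filament partners, 3 of 5 tested members, Smtn, Cnn2 and Tagln2, rose at an adjusted p under 0.01, beside 4.92% of all genes, and 0 of the 3 did so without vehicle replicate 1. Smtn, smoothelin, an actin-binding protein of contractile smooth muscle, stood at 33.2 and 37.3 CPM in vehicle, 88.5 and 71.9 CPM in the DMSO libraries and 65.9 and 78.0 CPM in the BI6727 libraries. The treated libraries lay above vehicle and the treated groups overlapped each other. Its log2 fold change between DMSO and vehicle was 1.18 (SE 0.15, adjusted p = 0.00182), but without either vehicle library it missed the threshold, with adjusted p of 0.0444 and 0.0271. Of the exonic length of Smtn, 16.3% lies under genes on the other strand. Cnn2 rose from a mean of 234 ± 2.28 CPM in vehicle to 376 ± 9.37 in the DMSO libraries, and Tagln2, transgelin-2, from 462 ± 9.12 to 677 ± 13.6 CPM (n = 2 each), and both missed this level without any vehicle or BI6727 library. Cnn3 stood at 248 ± 1.14 and 285 ± 1.85 CPM with an adjusted p of 0.172. Cald1, caldesmon, stood at 633 and 629 CPM in vehicle, 865 and 675 CPM in the DMSO libraries and 848 and 872 CPM in the BI6727 libraries, with an adjusted p of 0.166 between DMSO and vehicle.

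Of the myosins, Myl12a, a regulatory light chain of nonmuscle myosin, rose, from 153 ± 3.96 to 257 ± 37.9 CPM (log2 fold change 0.75, adjusted p = 0.00651). Of its exonic length, 19.9% lies under Myl12b and Myom1, so its count is uncertain, and it missed an adjusted p of 0.01 without any vehicle or BI6727 library. Myl6, the essential light chain, stood at 141 and 141 CPM in vehicle and 192 and 245 CPM in the DMSO libraries (log2 fold change 0.64, adjusted p = 0.0121). Myh9, the heavy chain of nonmuscle myosin IIA, stood at 349 and 403 CPM in vehicle, 873 and 511 CPM in the DMSO libraries and 849.5 and 833 CPM in the BI6727 libraries. All treated libraries lay above vehicle, and DMSO replicate 2 was far below replicate 1 (log2 fold change 0.88, adjusted p = 0.0322). Myh10, the heavy chain of nonmuscle myosin IIB, stood at 169 and 195 CPM in vehicle, 186 and 106 CPM in the DMSO libraries and 162 and 150.4 CPM in the BI6727 libraries, with overlap between DMSO and vehicle (adjusted p = 0.357). The ratio of these genes, which are of like length, hardly differed between the DMSO libraries. Myh9 made 62.6% of the summed heavy chain level in each vehicle library, 79.1% and 79.6% with TGF-β1 and DMSO, and 80.9% and 81.7% with BI6727.

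The tropomyosins had smaller log2 fold changes than Tnnt2. Tpm2 and Tpm4 had log2 fold changes of 0.48 and 0.33 between DMSO and vehicle (adjusted p = 0.0151 and 0.0372), Tpm3 0.28 (adjusted p = 0.0825) and Tpm1 0.11 (adjusted p = 0.44). For each of the 4, both DMSO libraries lay above both vehicle libraries, beside 29.8% of all genes.

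Among the 9 crosslinkers and focal adhesion proteins, Pdlim7 and Tes rose past the threshold, beside 2.56% of all genes. Pdlim7, a PDZ and LIM protein of actin stress fibers, stood at 42.1 and 36.4 CPM in vehicle, 104 and 103 CPM in the DMSO libraries and 90.7 and 92.6 CPM in the BI6727 libraries. The groups did not overlap (log2 fold change between DMSO and vehicle 1.40, SE 0.11, adjusted p = 0.000225). Tes, testin, a LIM protein of focal adhesions, stood at 98.2 and 114 CPM in vehicle, 227 and 238 CPM in the DMSO libraries and 208 and 213 CPM in the BI6727 libraries, again without overlap. Its log2 fold change was 1.13 (SE 0.10, adjusted p = 0.000471), and without vehicle replicate 1 the adjusted p was 0.017. Synpo, synaptopodin, an actin-bundling protein, was the only tested member lower at an adjusted p under 0.05 in this comparison. It stood at 80.0 and 72.3 CPM in vehicle, 44.8 and 27.0 CPM in the DMSO libraries and 38.4 and 43.1 CPM in the BI6727 libraries. Every treated library lay below vehicle (log2 fold change between DMSO and vehicle -1.08, SE 0.22, adjusted p = 0.0136).

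Palld, palladin, stood at 53.7 and 50.8 CPM in vehicle and 102 and 74.7 CPM in the DMSO libraries (log2 fold change 0.75, adjusted p = 0.0132). Actn1, α-actinin-1, stood at 251 and 249 CPM in vehicle and 394 and 298 CPM in the DMSO libraries (log2 fold change 0.47, adjusted p = 0.0462). For both, DMSO replicate 1 was the higher and the DMSO libraries lay wholly above vehicle, beside 29.8% of all genes. Flna, filamin A, the long crosslinker of cortical actin, stood at 656 and 739.9 CPM in vehicle and 1271 and 672 CPM in the DMSO libraries, so that the groups overlapped (adjusted p = 0.225). Vcl, vinculin, stood at 58.4 and 59.4 CPM in vehicle and at 73.2 and 45.8 CPM in the DMSO libraries, on either side of vehicle (adjusted p = 0.962), and 25.5% of its exonic length lies under Ap3m1. Actn4, α-actinin-4, stood at 514 and 539.7 CPM in vehicle and 732 and 575 CPM in the DMSO libraries (log2 fold change 0.31, adjusted p = 0.135). Zyx, zyxin, had a log2 fold change of 0.18 (adjusted p = 0.211). With the trend on length removed from each library, a setting chosen with earlier results known, 17 members were higher at an adjusted p under 0.01, beside 9.86% of all genes, and Synpo was lower, beside 9.38%.

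Of the 4 tested members of the LIM and SRF group, 3 rose at an adjusted p under 0.01 with TGF-β1 and DMSO, beside 4.92% of all genes. Csrp1 and Csrp2, LIM proteins of the cysteine-rich family, rose with log2 fold changes of 0.69 and 0.93 (adjusted p = 0.0038 and 0.00225), and Fhl2, a LIM cofactor, with 0.70 (adjusted p = 0.0086). Csrp1 and Fhl2 missed this level without any vehicle or BI6727 library, and Csrp2 without either vehicle library or BI6727 replicate 2. Srf itself stood at 59.9 and 62.4 CPM in vehicle, 80.3 and 82.8 CPM in the DMSO libraries and 65.3 and 64.0 CPM in the BI6727 libraries. The DMSO libraries were the highest, and the BI6727 libraries lay just above vehicle. The log2 fold change between DMSO and vehicle was 0.41 (SE 0.10, adjusted p = 0.021).

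**Figure D2:**
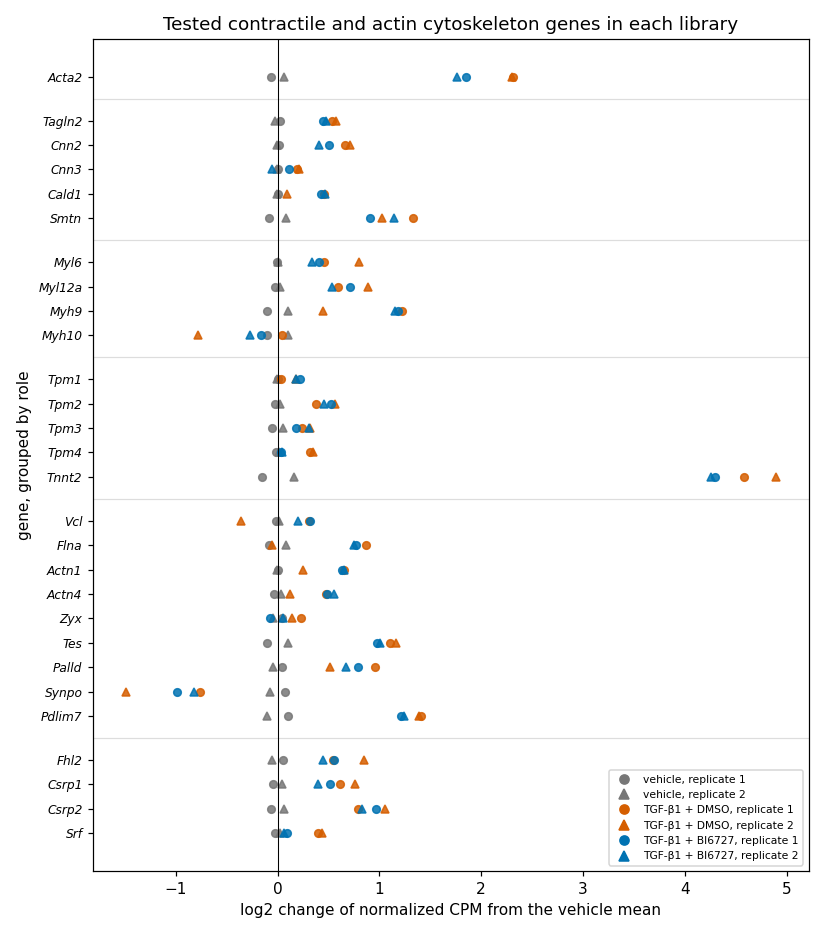
Log2 change of normalized CPM of the 28 tested members from the vehicle mean, by library, grouped by role. Colours mark groups and shapes replicates, and 1 point is 1 library. Tnnt2 and Acta2 lie farthest to the right, Synpo farthest to the left, and long genes such as Flna and Myh9 show a wide gap between the DMSO libraries.

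The 11 members below the filter included several classical smooth muscle genes. Actc1 and Myh11 had at most 2 counts in a library and Lmod1, leiomodin 1, had 2 to 9, so no fold is given for them. The other 8 passed a lower filter, edgeR's filterByExpr, which kept 14604 genes and 36 members. In that fit, 6 members rose past the same threshold between DMSO and vehicle, beside 2.75% of all genes, and 2 fell, beside 3.23%. A member that passes such a filter only through the group in which it is high tends to differ in that direction. These counts are therefore not taken as support for a direction.

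Myl9, the smooth muscle regulatory light chain, had 42 and 45 counts in vehicle, 297 and 354 with TGF-β1 and DMSO, and 210 and 238 with BI6727. In that order the CPM were 2.18 and 2.05, 14.3 and 17.0, and 11.7 and 9.85, and the groups did not overlap. It rose between vehicle and DMSO with a log2 fold change of 2.90 (SE 0.21, adjusted p = 5.61e-05), and its share of the 3 light chains per length went from 2.07% and 1.91% to 8.73% and 8.32%. Mylk, the kinase that phosphorylates this light chain, had 117 and 139 counts in vehicle, 24 and 17 counts with DMSO and 20 and 34 counts with BI6727. All treated libraries lay below vehicle, and the log2 fold change between DMSO and vehicle was -2.63 (SE 0.31, adjusted p = 0.000722). Without either vehicle library the adjusted p was 0.0137 and 0.0143. Of the exonic length of Mylk, 6.85% lies under other genes. Thus the light chain rose and its kinase fell in the same libraries, and in both cases the vehicle libraries stood apart from the 4 treated libraries.

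Cnn1 had 25 and 21 counts in vehicle, 6 and 2 counts with DMSO and 8 and 14 counts with BI6727 (log2 fold change between DMSO and vehicle -2.49, adjusted p = 0.0259). Acta1, skeletal α-actin, had 9 and 6 counts in vehicle, 32 and 35 counts with DMSO and 32 and 43 counts with BI6727. It missed the threshold against vehicle with DMSO (log2 fold change 2.13, adjusted p = 0.0127) and passed it with BI6727 (2.28, adjusted p = 0.00863), but not without any vehicle or BI6727 library (adjusted p from 0.0439 to 0.0799). Actg2, smooth muscle γ-actin, had 8 and 0 counts in vehicle, 55 and 42 counts with DMSO and 36 and 29 counts with BI6727, with an adjusted p of 0.0174 between DMSO and vehicle. Tagln, transgelin or SM22α, a usual marker of contractile cells, had only 9 and 6 counts in vehicle and 17 to 33 in the treated libraries (adjusted p = 0.0637). Its count is uncertain, because 67.9% of its exonic length lies under Pcsk7 and Gm48529 on the other strand and the strand setting of the counting was not given in the sources used here. Pcsk7 had 530 to 674 counts. Tnnc1, with an adjusted p of 0.278, and Des, desmin, with 22 to 42 counts and an adjusted p of 0.636, did not pass.

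**Figure D3:**
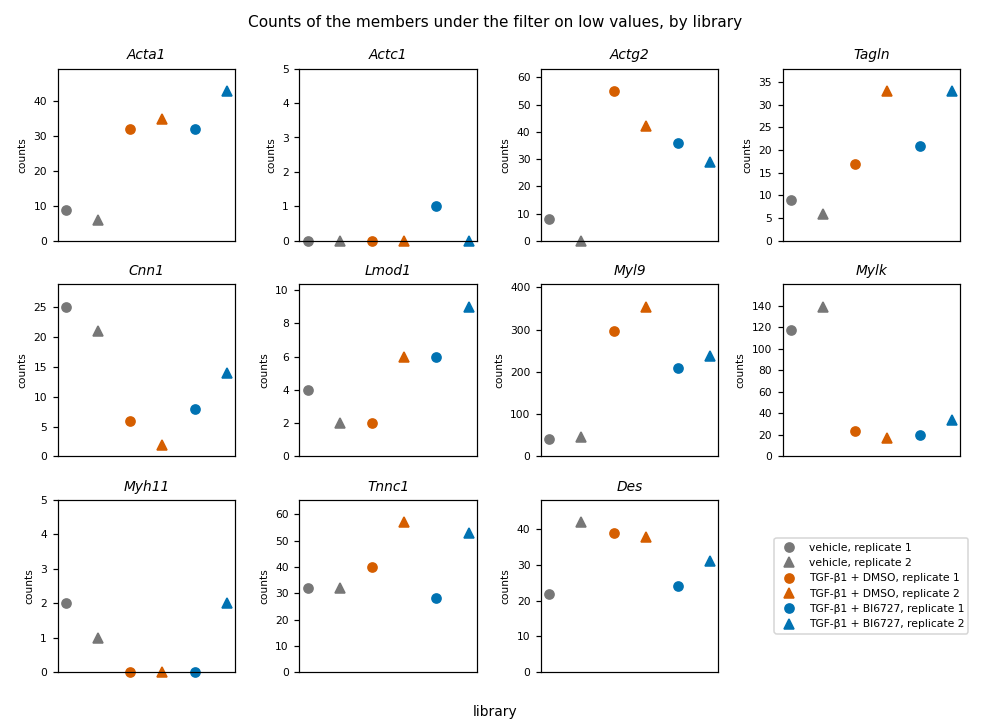
Counts of the 11 members below the filter on low values, 1 panel a gene and 1 point a library, with the axis starting at 0. Acta1, Actg2 and Myl9 are lowest in the vehicle libraries, Mylk and Cnn1 are highest there, and Actc1 and Myh11 have at most 2 counts.

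Between BI6727 and DMSO under TGF-β1, 0 of 28 members passed the threshold in either direction, beside 0.0% of all genes, by edgeR's quasi-likelihood test. DESeq2 also gave 0 at a fold change above 2 (0.116% of all genes lower and 0.0% higher) and placed Acta2 alone among the members lower at an adjusted p under 0.01 without it, beside 0.252% of all genes lower and 0.0105% higher. The smallest adjusted p of a member in the edgeR test was 0.468. At an unadjusted p under 0.05, 5 members were lower, beside 4.52% of all genes, and 0 were higher, beside 2.16%. The 5 were Acta2, Tnnt2, Srf, Tpm4 and Cnn2. BI6727 libraries lay wholly below the DMSO libraries for 12 members (17.1% of all genes) and wholly above for 2, Tpm1 and Actn4 (17.0%). The median log2 fold change of the members was -0.11, beside -0.003 over all genes.

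The values of each DMSO library show how these differences depend on which library BI6727 is set against. Acta2 was lower with BI6727 by nearly the same amount against either: the mean log2 CPM of the BI6727 libraries minus that of DMSO replicate 1 was -0.50, and minus that of replicate 2 was -0.49. With both libraries the log2 fold change was -0.50 (SE 0.09, adjusted p = 0.468), a fold change of 0.709. Fitted without DMSO replicate 1 it was -0.49 (adjusted p = 0.000146) and without replicate 2 -0.51 (adjusted p = 0.000407), each by edgeR with the lone DMSO library assumed to vary like the other groups. Acta2 was the only member at an adjusted p under 0.01 in both of these fits. The BI6727 libraries nevertheless remained far above vehicle, as the CPM values above show.

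Srf differed by -0.31 against DMSO replicate 1 and -0.36 against replicate 2 (log2 fold change with both -0.33, SE 0.10, adjusted p = 0.606). Tpm4 had 526 and 537 CPM in the DMSO libraries and 432 and 436 CPM in the BI6727 libraries, next to 417 and 426 CPM in vehicle, so that BI6727 and vehicle lay close together. Its differences from the DMSO libraries were -0.28 and -0.31 (log2 fold change with both -0.29, SE 0.09, adjusted p = 0.659). Tnnt2 differed by -0.30 and -0.62 (log2 fold change with both -0.47, SE 0.14, adjusted p = 0.62). Cnn2 differed by -0.20 and -0.26. Myl9, tested with the lower filter, had a log2 fold change of -0.54 (SE 0.18, adjusted p = 0.63).

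In the mean of the BI6727 libraries, several long members lay between the DMSO libraries. Flna had 1192 and 1174 CPM in the BI6727 libraries, which lies just below DMSO replicate 1 and far above replicate 2, with differences of -0.10 and 0.82. Its log2 fold change with both was 0.28 (SE 0.26, adjusted p = 0.86), and it turned to -0.12 without DMSO replicate 2. Myh9, Myh10, Vcl, Synpo, Cald1, Palld and Actn1 likewise had BI6727 means below DMSO replicate 1 and above replicate 2. The differences from replicate 1 were only -0.008 for Cald1 and -0.011 for Actn1. For Cald1, BI6727 replicate 2 (872 CPM) lay above DMSO replicate 1 (865 CPM). For Vcl, BI6727 replicate 1 did (73.48 against 73.20 CPM). Fitted without DMSO replicate 1, 8 members were higher with BI6727 at an adjusted p under 0.01 (9.19% of all genes) and 7 were lower (8.32%). Fitted without DMSO replicate 2, 0 were higher (0.714%) and 1, Acta2, was lower (1.71%). Of the 28 members, 22 were lower than DMSO replicate 1 and 18 were lower than replicate 2, beside 49.9% and 50.1% of all genes. The part of gene length in the difference between the DMSO libraries was not tested beyond these values.

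**Figure D4:**
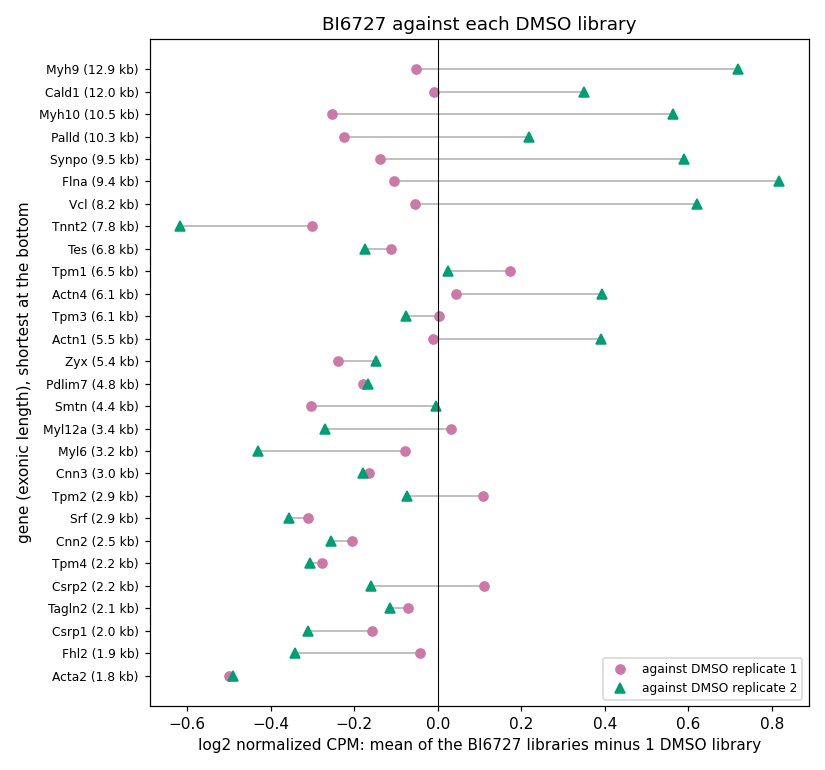
Mean log2 CPM of the BI6727 libraries minus that of DMSO replicate 1 (circles) and of DMSO replicate 2 (triangles) for the 28 tested members, ordered by exonic length with the shortest at the bottom. Acta2, Tpm4 and Srf lie left of 0 with both symbols close together, and Flna, Myh9 and Vcl lie left of 0 against replicate 1 and right of 0 against replicate 2.

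Against vehicle, the libraries with TGF-β1 and BI6727 had 4 members past the threshold, all higher (2.34% of all genes), and 0 lower (2.96%). Tnnt2 is among the 4 but passed the filter on low values through the TGF-β1 libraries, so its call adds no support to the count, here or below. The count was 2, Acta2 and Tnnt2, without vehicle replicate 2 (0.946%). DESeq2 called 5 higher (2.52%) and also 0 lower (3.15%), and in the edgeR test 1 member, Synpo, was lower at an unadjusted p under 0.05 (20.0% of all genes). At an adjusted p under 0.05 without a fold change minimum, 16 members were higher (11.3% of all genes) and Synpo lower (13.2%). This comparison shares its vehicle libraries with that of TGF-β1 and DMSO, and the comparison of BI6727 with DMSO shares its DMSO libraries with the latter, so their values are set side by side only. The log2 fold changes against vehicle were 1.81 for Acta2 with BI6727 and 2.30 with DMSO, 4.27 and 4.74 for Tnnt2, 1.22 and 1.40 for Pdlim7, and 1.03 and 1.18 for Smtn. Tes had 0.99 with BI6727 and 1.13 with DMSO, just under and just over a fold change of 2. Adjusted p with BI6727 was 5.81e-05 for Acta2, 2.15e-05 for Tnnt2, 0.000352 for Pdlim7, 0.003 for Smtn and 0.000818 for Tes. Smtn missed the threshold without any of the vehicle or BI6727 libraries, with adjusted p from 0.0178 to 0.0567, and Pdlim7 without vehicle replicate 2 (adjusted p = 0.0105). Myh9 had a log2 fold change of 1.16 with BI6727 (adjusted p = 0.0115) and Synpo -0.90 (adjusted p = 0.0249). Srf, Tpm4, Cnn3 and Zyx had log2 fold changes of 0.08, 0.04, 0.03 and -0.01 with BI6727. The median of the 28 members was 0.47, beside 0.003 over all genes. With the lower filter, 8 members passed the threshold higher (2.51% of all genes) and 1 lower (3.71%). There, Myl9 was higher than vehicle (log2 fold change 2.36, adjusted p = 0.000148) and Mylk lower (-2.26, adjusted p = 0.00128), though Mylk missed the threshold without any vehicle or BI6727 library (adjusted p from 0.0156 to 0.0211).

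**Figure D5:**
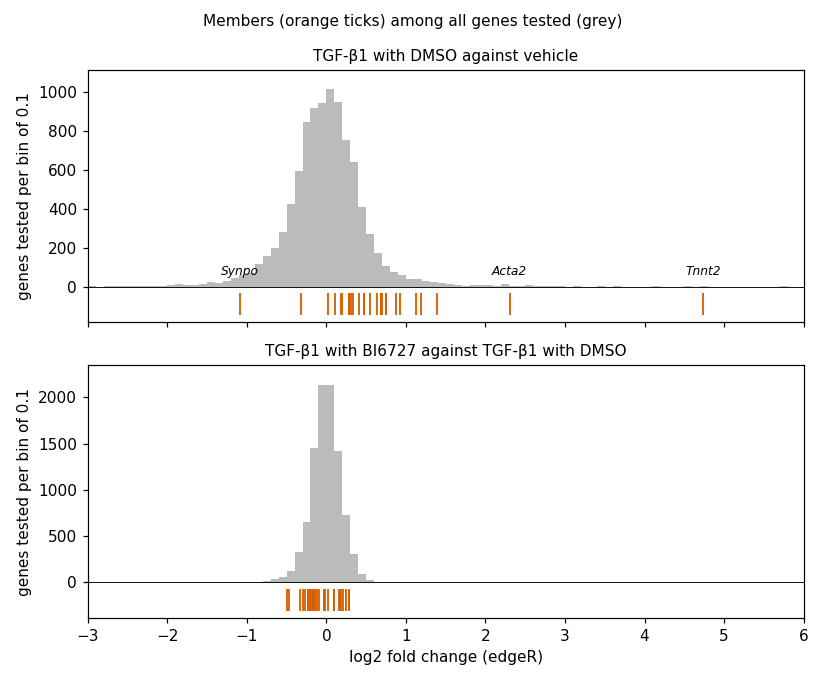
Number of genes tested per log2 fold change bin of 0.1 (grey bars) and the 28 members (orange ticks below) for TGF-β1 with DMSO against vehicle and for BI6727 against DMSO. Members reach 4.74 in the first comparison, with a median of 0.52, and stay between -0.50 and 0.28 in the second; 8 genes outside the axis range of the first panel are not drawn.

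Other genes of the actin cytoskeleton, taken from a list of 97 gene identifiers with 61 tested, had few calls with the fold change minimum. Between DMSO and vehicle, 3 were called higher and 1 lower, near the shares of 2.56% and 2.53% over all genes. Both the counts and the shares moved when a library was left out. Tmsb4x, thymosin β4, which sequesters actin monomers, had a log2 fold change of 2.46 (SE 0.21, adjusted p = 0.000412). Pdlim1, a PDZ and LIM protein related to Pdlim7, had 1.85 (SE 0.11, adjusted p = 9.58e-05), and Rhob had 1.02 (SE 0.10, adjusted p = 0.000603). Filip1l had -1.41 (SE 0.12, adjusted p = 0.000349). Actb and Actg1 had 0.50 and 0.78 (adjusted p = 0.0336 and 0.00183). Without the minimum, 10 of the 61 (16.4%) were higher at an adjusted p under 0.01 in the edgeR test, beside 4.92% of all genes. Lower were 4 (6.56%), beside 4.91%. At 0.05, 17 (27.9%) were higher, beside 11.0%, and 10 (16.4%) lower, beside 12.0%. DMSO libraries lay wholly above vehicle for 29 (47.5%), beside 29.8%, and wholly below for 17 (27.9%), beside 33.1%. The median of these 61 genes was 0.21, where that of the members was 0.52. Of their 61, 24 (39.3%) were lower than vehicle in log2 fold change, against 2 of the 28 members (7.14%) and 50.5% of all genes. Between BI6727 and DMSO 0 of the 61 passed with edgeR (0.0% of all genes) or DESeq2 (0.0% higher and 0.116% lower). At an unadjusted p under 0.05 in the edgeR test, 2 were higher and 5 lower (2.16% and 4.52% of all genes). Against vehicle with BI6727 the same 4 genes passed in the same directions, beside 2.34% of all genes higher and 2.96% lower.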

How the data were processed

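RNA-seq after rRNA removal covered 6 libraries of NIH/3T3 cells, grouped by the sample labels. The authors aligned reads to mm10 with Subjunc of Subread 1.6.4. They assigned them to Gencode M20 genes by featureCounts. Their deposited table holds whole-number counts per gene, not normalized. The table also gives the exonic length of each gene, which was used for levels per kilobase, and 8 empty columns, which were not used. The strand setting was not given in the sources used here. DESeq2 1.22.2 and R 3.6.1 are among the tools in the submitters' processing notes.

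Genes reaching 10 CPM in more than 3 libraries were compared in R 4.3.3 with the quasi-likelihood test of edgeR 4.0.16 (TMM scaling, all 6 libraries in 1 model with 3 residual degrees of freedom). Genes were called at a Benjamini-Hochberg adjusted p under 0.01 over all genes tested and a fold change above 2. CPM are TMM-normalized, log2 CPM used a prior count of 1, and the SE is the absolute log2 fold change over the root of its F statistic. The test was checked on simulated counts of 9518 genes: of 200 genes changed 3-fold, 200 were called between DMSO and vehicle and between BI6727 and DMSO, and 199 between BI6727 and vehicle, with 0 false calls. All simulated libraries had the same dispersion for a gene, without the wider spread and length trend of the DMSO libraries. The check therefore does not cover that spread, or changes smaller than 3-fold. Replicates were separate libraries: a chi-square test of counts gave 7.46, 82.3 and 6.53 per degree of freedom in the vehicle, DMSO and BI6727 groups.

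The members and all lists were chosen with earlier results of these data known. Every member is named. Full statistics go to members past the threshold in any comparison and to the 5 with the largest change between BI6727 and DMSO, and the other actin genes named are those past the threshold with Actb and Actg1. Any other member was given its values after they were seen. Symbols were matched by Ensembl identifier, for 54723 of 54752. Overlap with other genes was taken from exons, and shared sequence from 50-base windows of transcripts. Alternatives were DESeq2 1.42.0, its size factors, lower filters (filterByExpr, or 10 counts in total), only the groups compared, a replicate block, offsets for the trend on length (lowess span 0.3), no minimum on fold change, and each library left out in turn. A crossed replicate block and repeats of the alternatives with filterByExpr were added after the data were seen.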

Additional observations from a re-analysis of the deposited data

How the results depend on the processing

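Low counts limit what can be said of the 11 members below the filter, 3 of which had at most 9 counts in a library. Between DMSO and vehicle, 5 members were called higher. Leaving out 1 library gave 3 to 6, with 3 when vehicle replicate 1 was left out, and 0 to 1 lower, while the share of all genes called went from 0.83% to 3.2% higher and from 0.504% to 5.12% lower. Without a minimum on fold change, 11 were higher at an adjusted p under 0.01 (4.92% of all genes). At 0.05, 18 were higher (11.0%) and 1 lower (12.0%). Members called lower numbered 1 with DESeq2 (2.66% of all genes). They numbered 2 with filterByExpr (3.23%) and with at least 10 counts in total (2.72%), which tested more genes. The median of the members was 0.55 with length offsets and 0.47 to 0.55 with 1 library left out. Of the other actin cytoskeleton genes, the number called also moved with the library left out, as the share of all genes did. Lower calls were 3 with either lower filter (3.23% and 2.72% of all genes). With no minimum on fold change, 10 were higher (4.92%) and 4 lower (4.91%) at 0.01. At 0.05, 17 were higher (11.0%) and 10 lower (12.0%). Between BI6727 and DMSO, the number of these genes called higher moved with the library left out, as did the share of all genes. The log2 fold change of Smtn was 0.0063 without DMSO replicate 1 and -0.31 without replicate 2, and that of Flna 0.82 and -0.12, and the cause was not tested. Between BI6727 and vehicle, members called higher numbered 8 with either lower filter, beside 2.51% (filterByExpr) and 2.05% (10 counts in total) of all genes. Without a minimum, 16 were higher at 0.05, beside 11.3%. Members lower numbered 1 with either lower filter (3.71% and 3.13% of all genes) and 1 at 0.05 without a minimum (13.2%). Other actin genes called higher were 5 with length offsets (2.61% of all genes), and those called lower were 3 with either lower filter (3.71% and 3.13%). At 0.05 without a minimum, 17 of them were higher (11.3%) and 7 lower (13.2%).

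Deviations of same-numbered libraries from the group means correlated with r of -0.11, -0.26 and 0.047 over 9518 genes. With 2 libraries a group, and a DMSO difference that moved with gene length, these values do not show whether the numbers mark a pairing. With the replicate number as a block, 5, 0 and 4 members were called higher in the 3 comparisons in the order above (2.35%, 0.0% and 2.21% of all genes). In each, 0 were called lower (2.41%, 0.0% and 2.82%). With the numbers of the DMSO libraries crossed, the block gave 5, 0 and 5 higher (2.58%, 0.0% and 2.44% of all genes), and 1 lower between DMSO and vehicle (2.57%).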
